A study of Mus musculus with 12 samples.

Results

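The 7 marker genes of resident perivascular macrophages described here were read in macrophages of the mouse aorta and of adipose tissue, each sorted by surface LYVE-1. The genes are Vsig4, Timd4, Folr2, F13a1, Cbr2, Mrc1 and Cd163. They were taken as a list of names, with no threshold on these counts, but with earlier results of these data known. Counts over the list therefore describe and support nothing independently. They are 7 of the 46517 genes in the count table. All 7 genes passed the filter on low counts. The question was which of them differ between the LYVE1+ and LYVE1- sorts and which are shared by both.

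Perivascular macrophages sit along arteries and in the stroma of fat, where they take up debris, blood-derived ligands and matrix fragments. Many of them carry LYVE-1, a hyaluronan receptor first known from lymphatic endothelium. The 7 markers encode receptors and enzymes of that clearing role: receptors for complement-coated particles, for phosphatidylserine on dying cells, for folates, for mannose-bearing glycoproteins and for haemoglobin, beside a transglutaminase and a carbonyl reductase.

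The cells came from adult wild type C57/BL6 mice, with no treatment named in the labels. Live CD45+ cells that also carried CD64, MerTK, CD11b and F4/80 were sorted into aorta LYVE1+, aorta LYVE1-, fat LYVE1+ and fat LYVE1- macrophages, with 3 libraries in each of the 4 groups. Aortas of 30 mice were used, and the epididymal and subcutaneous fat of 20 mice. Nothing in the labels tells if replicate libraries stem from different pools of mice, so p-values measure only the spread between these libraries, which may be technical. RNA (2 ng) was turned into full-length cDNA libraries by Smart-seq2, a protocol that does not keep strand, and was read with paired reads of 51 cycles.

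Total counts per library lay between 5049936 and 29792301. The labelled cell type was checked against the genes of the sort gate. Ptprc (CD45), Fcgr1 (CD64), Mertk, Itgam (CD11b) and Adgre1 (F4/80) were present in every library, and their summed level spanned 2807 to 3098 CPM (aorta LYVE1+), 2791 to 3101 (aorta LYVE1-), 2029 to 2583 (fat LYVE1+) and 2223 to 2911 (fat LYVE1-). CPM is a gene's count scaled to the usual common library size. Clec4f, which defines Kupffer cells of the liver, had no count in any of the 12 libraries, and Gata6, of large peritoneal macrophages, reached at most 1.35 CPM. Other genes of those lists were present. The 5 Kupffer genes, which include Slc40a1, summed to 221 to 385 CPM in aorta LYVE1+, 130 to 234 in aorta LYVE1-, 333 to 720.2 in fat LYVE1+ and 131 to 360 CPM in fat LYVE1- libraries, and the 7 peritoneal genes to 8.55 to 79.2 CPM over all 12. The libraries numbered 1 of both fat sorts stood apart. They held 25920 CPM (LYVE1+) and 5271 CPM (LYVE1-) of erythroid transcripts, with a mitochondrial share of 8.85% (LYVE1+) and 12.1% (LYVE1-). The other 4 fat libraries held 211 to 287 CPM of erythroid transcripts, with a mitochondrial share of 2.69% to 3.2%.

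Lyve1, the gene of the sorted receptor, had 2744, 2044 and 2807 CPM in aorta LYVE1+ libraries 1 to 3, against 877, 1323 and 868 CPM in aorta LYVE1- libraries. It had 1497, 2193 and 2095 CPM in fat LYVE1+ libraries, against 230, 569.7 and 611 CPM in fat LYVE1- libraries. These levels and those of the markers below are scaled by TMM, which corrects each library's size for its composition. The sorts did not overlap in either tissue, and the LYVE1- cells kept some Lyve1 transcript in every library. By edgeR's quasi-likelihood test with Benjamini-Hochberg adjustment over 14216 genes, Lyve1 was called in fat (log2 fold change 2.04, SE 0.33, adjusted p = 0.00383). In the aorta its value was 1.31 (SE 0.32) and it was not called (adjusted p = 0.108). A gene is called here when its adjusted p is below 0.05. The aortic difference of Lyve1 was called by DESeq2 (0.00154), with no filter on low counts (0.00213), in a fit of the aorta groups alone (0.0102) and without both fat libraries numbered 1 (0.000815), with log2 fold changes of 1.30 to 1.31.

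The stretch of 150 bases before the RefSeq start is shown for 4 markers, since they mark the ends of the range found between the sorts: Vsig4 and Timd4 had the largest average differences, and Mrc1 and Cd163 the smallest. The sequences are from RefSeq on GRCm38.p6 and run 5′ to 3′ along the gene's strand. They lie at chrX:96293439-96293588 on the minus strand for Vsig4, chr11:46810649-46810798 on the plus strand for Timd4, chr2:14229264-14229413 on the plus strand for Mrc1 and chr6:124304501-124304650 on the plus strand for Cd163. Capitals mark GAGGAA, the core bound by the myeloid factor PU.1, and TGCTGA, the core of the site of MAF factors, on either strand.
Vsig4: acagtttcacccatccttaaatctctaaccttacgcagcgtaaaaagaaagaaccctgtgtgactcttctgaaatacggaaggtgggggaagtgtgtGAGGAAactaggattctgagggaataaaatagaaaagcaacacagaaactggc
Timd4: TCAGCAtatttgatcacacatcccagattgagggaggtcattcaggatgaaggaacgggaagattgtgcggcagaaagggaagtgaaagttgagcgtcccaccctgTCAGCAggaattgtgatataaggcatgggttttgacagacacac
Mrc1: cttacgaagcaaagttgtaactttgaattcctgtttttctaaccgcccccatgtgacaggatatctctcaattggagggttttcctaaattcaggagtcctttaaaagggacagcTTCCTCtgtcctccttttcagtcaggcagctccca
Cd163: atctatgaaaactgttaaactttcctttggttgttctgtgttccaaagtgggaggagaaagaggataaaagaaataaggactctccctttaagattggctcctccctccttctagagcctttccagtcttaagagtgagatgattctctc
All 7 markers were found in the promoter table. Over the 250 bases before the start and on both strands, the PU.1 core was found in 4 of the 7 markers and the MAF core in 2, while CACGTG, the E-box, was found in none. Folr2 and F13a1 each had 2 promoters, and a marker was counted if either held the motif. Counted by promoter, the PU.1 core was found in 4 and the MAF core in 3. No match overlapped another motif's match. Of 32851 promoters of this length, 23.3% hold the PU.1 core, 16.1% the MAF core and 6.02% the E-box. The PU.1 core stood before both Vsig4 and Mrc1, the markers that differed most and least between the sorts, and Cd163 had none of the 3 motifs in this window. Such matches describe letters and are not binding sites.

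Vsig4 encodes CRIg, a macrophage receptor for C3b and iC3b that also restrains T cells. It was the marker with the largest difference between the sorts in both tissues and the only one called in the aorta. Vsig4 (ENSMUSG00000044206.3, chromosome X, 96247203 to 96293438, minus strand, GRCm38) had 42.1, 94.1 and 46.8 CPM in aorta LYVE1+ libraries, against 7.09, 6.48 and 11.5 CPM in aorta LYVE1- libraries. In fat it had 16.7, 52.7 and 52.4 CPM in LYVE1+ libraries, against 1.66, 2.16 and 1.59 CPM in LYVE1- libraries. The LYVE1+ libraries lay above the LYVE1- libraries throughout, and fat LYVE1+ library 1 was the low one of its group. Between the aortic sorts Vsig4 differed 7.3-fold, with LYVE1+ higher (log2 2.87, SE 0.43, adjusted p = 0.0103), and between the fat sorts 22.5-fold in the same direction (4.49, SE 0.50, adjusted p = 0.00052). Averaged over the tissues it was 12.8-fold higher (95% interval 7.81 to 21, adjusted p = 5.44e-05).

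It is also the marker with the fewest reads. The 3 fat LYVE1- libraries held 13, 22 and 16 Vsig4 counts, so that level is known only coarsely. Leaving out aorta LYVE1- library 1 ended the aorta call (adjusted p = 0.0831), as did the prefix of the library identifiers in the model (2.49, SE 0.53, adjusted p = 0.309). Prefix and sort are nearly the same split in the aorta: LYVE1+ libraries 1 and 2 carry RMM, and LYVE1+ library 3 and all 3 LYVE1- libraries carry RHH. Within RHH, the 1 LYVE1+ library had more transcript than all 3 LYVE1- libraries for Vsig4 and for the other 6 markers. That holds for 28% of all genes, and 1 library against 3 allows no test. The same LYVE1+ library 3 held 1393 CPM of erythroid transcripts, against 1.88 to 347.5 CPM in the other aortic libraries.

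Other genes of complement recognition were set beside Vsig4. C3, Itgam, Itgb2 and Cr1l were called neither in the aorta, nor in fat, nor in the average over tissues, and Itgax was called lower in that average. Itgax, the CD11c chain of complement receptor 4, had 0.498 to 1.58 CPM in aorta LYVE1+ libraries against 20.1 to 66.9 CPM in aorta LYVE1- libraries; the fat ranges were 0.693 to 18.6 CPM in fat LYVE1+ against 12.8 to 80.2 CPM in fat LYVE1- libraries. On average Itgax was lower in the LYVE1+ sorts (log2 -3.87, SE 0.79, adjusted p = 0.0117). That call ended with the prefix in the model (adjusted p = 0.108).

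Timd4 encodes TIM-4, a phosphatidylserine receptor that tethers dying cells and is used as a mark of long-lived resident macrophages. It was higher in the LYVE1+ cells of fat, and its aorta LYVE1- level was well above its fat LYVE1- level. Timd4 (ENSMUSG00000055546.6, chromosome 11, 46810800 to 46844332, plus strand) had 249.7, 276 and 242 CPM in aorta LYVE1+ libraries, against 127, 157 and 159 CPM in aorta LYVE1- libraries. The fat values of Timd4 were 119, 234 and 269 CPM in LYVE1+ libraries, against 19.3, 52.9 and 66.2 CPM in LYVE1- libraries. Neither tissue showed an overlap between the sorts, and libraries 1 of both fat sorts were the low ones. The fold change was 4.48 in fat (log2 2.16, SE 0.37, adjusted p = 0.00586). In the aorta the log2 fold change was 0.80 (SE 0.36, adjusted p = 0.426, not called). A fit limited to the fat groups ended the fat call (2.18, SE 0.46, adjusted p = 0.0688), and a fit limited to the aorta groups made the aortic difference a call (0.79, SE 0.13, adjusted p = 0.0195), as did leaving out both fat libraries numbered 1 (0.80, adjusted p = 0.00467).

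The difference of the LYVE1 effect between the tissues was -1.37 for Timd4 (log2, aorta minus fat, SE 0.51, unadjusted p = 0.0186, adjusted p = 0.712). Without both fat libraries numbered 1 it was -1.28 (SE 0.21, adjusted p = 0.0161). For Vsig4 the difference was -1.62 (SE 0.63, unadjusted p = 0.0233, adjusted p = 0.734).

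Among 12 other genes of phosphatidylserine recognition, 8 were tested, and 6 of them were called in neither tissue. Axl, a receptor tyrosine kinase for dying cells, went the opposite way to Timd4. It had 29.6 to 78.7 CPM in aorta LYVE1+ against 208 to 251 CPM in aorta LYVE1- libraries, which put it lower in the LYVE1+ sort (log2 -2.27, SE 0.31, adjusted p = 0.00619). In fat it had 31.2 to 44.5 CPM in LYVE1+ against 259 to 361 CPM in LYVE1- libraries (-2.97, SE 0.32, adjusted p = 0.00047). With the prefix in the model the aorta call of Axl ended (-2.77, SE 0.48, adjusted p = 0.257). Pros1, protein S, a bridging ligand of kinases related to Axl, was higher in fat LYVE1+ cells (1.21, SE 0.29, adjusted p = 0.0343). A fit limited to fat ended that call (adjusted p = 0.144), as did leaving out any 1 of aorta LYVE1+ library 1, aorta LYVE1- library 2 or 3, fat LYVE1+ library 2 or 3, or any fat LYVE1- library (adjusted p = 0.0506 to 0.176). Mertk, the related kinase used in the gate, had log2 fold changes of 0.38 in the aorta and 0.42 in fat (adjusted p = 0.549 and 0.399). Over these 8 genes the median was 0.12 on average over tissues.

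**Figure D1:**
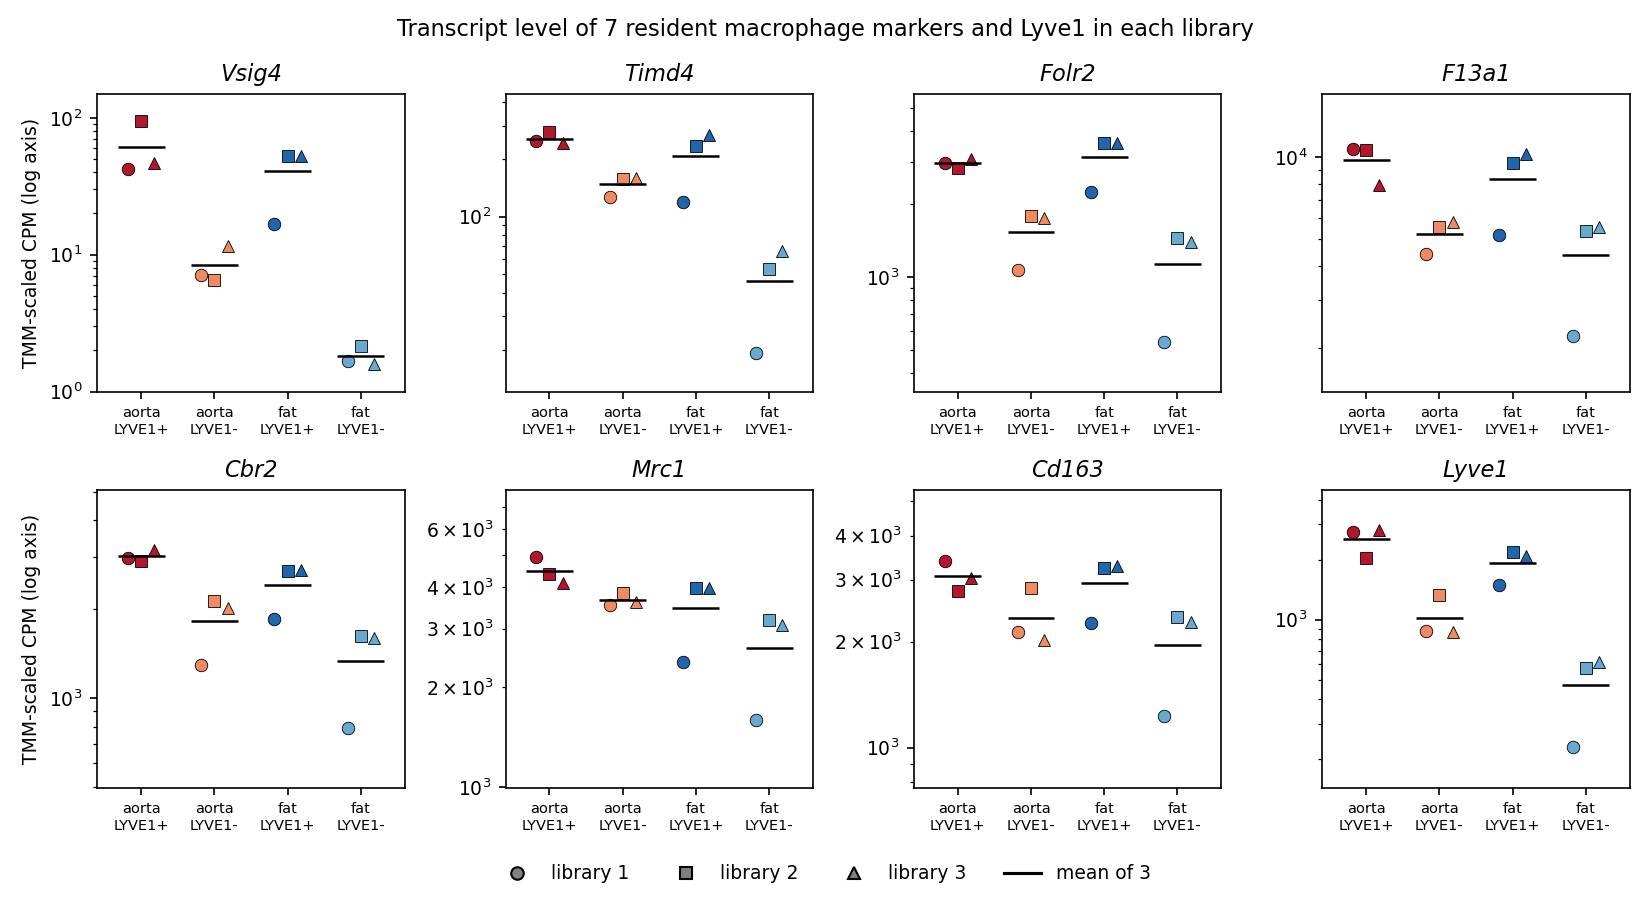
Level of each of the 7 markers and of Lyve1 in every library, as TMM-scaled CPM on a log axis, with 1 symbol per library and a bar at the mean of 3. Vsig4 separates the sorts most widely, from 42.1 to 94.1 CPM in aorta LYVE1+ against 6.48 to 11.5 CPM in aorta LYVE1- libraries, while Mrc1 spans 1591 to 4931 CPM over all 4 groups.

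Folr2 encodes folate receptor beta, a surface protein that takes up folates and is used to mark resident macrophages near vessels. It was higher in fat LYVE1+ cells, and in the aorta the sorts did not overlap although the gene was not called. Folr2 (ENSMUSG00000032725.9, chromosome 7, 101839988 to 101857194, minus strand) had 2973, 2830 and 3085 CPM in aorta LYVE1+ libraries, against 1069, 1779 and 1758 CPM in aorta LYVE1- libraries. Fat libraries had 2239, 3566 and 3587 CPM in LYVE1+ libraries, against 535.5, 1455 and 1396 CPM in LYVE1- libraries. Aorta LYVE1- library 1 and both fat libraries numbered 1 were the low ones of their groups. The fold change in fat was 2.77 (log2 1.47, SE 0.34, adjusted p = 0.0273), and the log2 fold change in the aorta was 0.95 (SE 0.33, adjusted p = 0.285). The fat call ended without fat LYVE1+ library 2 or 3 (adjusted p = 0.112 and 0.114), without fat LYVE1- library 3 (0.0548) and when only the fat groups were fitted (0.132). In the aorta Folr2 was called when only the aorta groups were fitted (0.94, SE 0.18, adjusted p = 0.0309) and without both fat libraries numbered 1 (0.95, SE 0.16, adjusted p = 0.00428).

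Of the exonic bases of Folr2, 975 of 1546 are shared with Gm10602, an antisense gene, and unstranded reads there cannot be assigned to a strand. Gm10602 itself was given 63 counts over all 12 libraries, against 359086 for Folr2. Of 6 other folate genes 5 were tested and none was called in any comparison. On average over tissues their median was 0.04, and 1 had an unadjusted p below 0.05. Slc46a1, the proton-coupled folate transporter, had a log2 fold change of 0.46 in the aorta and 0.76 in fat (adjusted p = 0.636 and 0.276), and Ggh, a lysosomal folate hydrolase, 0.16 and 0.10 (adjusted p = 0.752 and 0.829).

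F13a1 and Cbr2 are the enzymes of the list. F13a1 encodes the catalytic A subunit of coagulation factor XIII, a transglutaminase that crosslinks fibrin and matrix, and Cbr2 a carbonyl reductase that is abundant in mouse lung. Each was called higher in LYVE1+ cells in the average over both tissues and in neither tissue alone. F13a1 (ENSMUSG00000039109.14, chromosome 13, 36867178 to 37050244, minus strand) had 10730, 10640 and 7906 CPM in aorta LYVE1+ libraries, against 4408, 5535 and 5775 CPM in aorta LYVE1- libraries. The fat levels were 5183, 9581 and 10330 CPM in LYVE1+ libraries, against 2209, 5384 and 5539 CPM in LYVE1- libraries. The aortic sorts were separate, and the fat sorts overlapped only through LYVE1+ library 1. Its log2 fold change was 0.90 in the aorta (SE 0.33, adjusted p = 0.317), 0.93 in fat (SE 0.33, adjusted p = 0.169) and 0.92 on average (SE 0.24, adjusted p = 0.0358). Of its exonic bases 74 are shared with the antisense gene Gm30489.

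Cbr2 (ENSMUSG00000025150.9, chromosome 11, 120729489 to 120732114, minus strand) had 2990, 2920 and 3185 CPM in aorta LYVE1+ libraries, against 1296, 2137 and 2022 CPM in aorta LYVE1- libraries. Levels in fat were 1846, 2690 and 2726 CPM in LYVE1+ libraries, against 793, 1624 and 1599 CPM in LYVE1- libraries. The sorts were separate in both tissues. Its log2 fold change was 0.74 in the aorta (SE 0.27, adjusted p = 0.32), 0.85 in fat (SE 0.27, adjusted p = 0.121) and 0.80 on average (SE 0.19, adjusted p = 0.0284). The difference between the tissues was -0.04 for F13a1 (95% interval -1.04 to 0.97) and -0.12 for Cbr2 (-0.95 to 0.72).

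Both average calls were near the threshold. That of F13a1 ended without aorta LYVE1+ library 1 or 2, any aorta LYVE1- library, or fat LYVE1+ library 2 or 3 (adjusted p = 0.067 to 0.107), and that of Cbr2 without any aorta LYVE1+ library, aorta LYVE1- library 1 or 3, or fat LYVE1+ library 2 or 3 (adjusted p = 0.0513 to 0.0849). With the prefix in the model neither was called (0.76 for F13a1, adjusted p = 0.222, and 0.83 for Cbr2, adjusted p = 0.111). Relatives of both enzymes gave no call in any comparison: 2 of 5 transglutaminase genes were tested, and all 4 other carbonyl reductases. Tgm2, tissue transglutaminase, had log2 fold changes of -0.82 in the aorta and -0.37 in fat (SE 1.01 and 1.02), and Tgm1, of the epidermal cornified envelope, -0.23 and -0.40 (SE 0.40 and 0.41). Cbr1, a general carbonyl reductase, had 0.45 in the aorta and 0.55 in fat (SE 0.23 and 0.24), and Dcxr, a xylulose reductase, 0.47 and 0.28 (SE 0.24 and 0.25). The medians of the average over tissues were -0.46 for the 2 transglutaminases and 0.44 for the 4 reductases, with 0 and 2 genes at an unadjusted p below 0.05.

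Mrc1 and Cd163 were shared by both sorts at high level and were not called in any comparison of the fit of all 12 libraries without pairing. Other fits, given below, did call them. Mrc1 encodes the mannose receptor CD206, and Cd163 the receptor for haemoglobin bound to haptoglobin. Mrc1 (ENSMUSG00000026712.3, chromosome 2, 14229392 to 14332057, plus strand) had 4931, 4393 and 4122 CPM in aorta LYVE1+ libraries, against 3532, 3851 and 3603 CPM in aorta LYVE1- libraries. Fat cells had 2376, 3992 and 3993 CPM in LYVE1+ libraries, against 1591, 3194 and 3075 CPM in LYVE1- libraries. The aortic sorts were separate by a small margin, and the fat sorts overlapped only through LYVE1+ library 1. The log2 fold change was 0.29 in the aorta (95% interval -0.27 to 0.85, adjusted p = 0.724), 0.40 in fat (-0.16 to 0.96, adjusted p = 0.521) and 0.34 on average (-0.05 to 0.74, adjusted p = 0.311). Without both fat libraries numbered 1 the average was called (0.32, adjusted p = 0.00889). A change of up to 1.67-fold on average therefore lies within the interval.

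Cd163 (ENSMUSG00000008845.8, chromosome 6, 124304656 to 124330527, plus strand) had 3379, 2778 and 3034 CPM in aorta LYVE1+ libraries, against 2128, 2833 and 2020 CPM in aorta LYVE1- libraries. For fat the levels were 2253, 3242 and 3288 CPM in LYVE1+ libraries, against 1230, 2347 and 2280 CPM in LYVE1- libraries. The sorts overlapped in both tissues, through aorta LYVE1- library 2 and fat LYVE1+ library 1. The log2 fold change was 0.40 in the aorta (95% interval -0.14 to 0.93, adjusted p = 0.582), 0.58 in fat (0.05 to 1.12, adjusted p = 0.266) and 0.49 on average (0.11 to 0.87, adjusted p = 0.124). The average was called by DESeq2 (adjusted p = 0.0355), without fat LYVE1+ library 1 (0.0423) and without both fat libraries numbered 1 (0.0103).

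Between the sorts, the mannose receptor family and the genes of haem handling gave few calls beside them. None of 3 other family members was called (median -1.65 on average over tissues, 1 with an unadjusted p below 0.05). Mrc2, a collagen receptor, had a log2 fold change of -0.26 in the aorta and -3.03 in fat (SE 1.29 and 1.56), and Ly75, the lectin DEC-205, -4.90 and -0.58 (SE 1.76 and 1.46), which are wide errors of rare transcripts. The median of 8 haem and iron genes was 0.25 on average over tissues, and 4 had an unadjusted p below 0.05, as had 20.8% of all genes. Between aorta and fat, 2 of the 8 were called in LYVE1+ cells, both higher in the aorta (1.88% of all genes). In LYVE1- cells 2 were called higher in the aorta and 1 lower (2.48% of all genes in either direction). Of the 8 genes Slc40a1, the iron exporter ferroportin, was on average higher in the LYVE1+ sorts (log2 1.12, SE 0.27, adjusted p = 0.0291). Lrp1, the receptor for haem bound to haemopexin, was lower in fat LYVE1+ cells (-0.57, SE 0.14, adjusted p = 0.0457) at 247 ± 21.5 CPM in LYVE1+ and 366 ± 37.5 CPM in LYVE1- cells (SD, n = 3 each). The Lrp1 call ended without any of the aorta libraries but LYVE1+ library 2, without fat LYVE1+ library 2 or 3 or any fat LYVE1- library (adjusted p = 0.0518 to 0.202), when only the fat groups were fitted (0.152), with no filter on low counts (0.0968) and with the prefix in the model (0.0675). The Slc40a1 call ended without aorta LYVE1+ library 1 or 2, aorta LYVE1- library 1 or 2, or fat LYVE1+ library 2 or 3 (0.0591 to 0.09), and with the prefix in the model (0.187).

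All 7 markers had positive LYVE1 log2 fold changes in both tissues, and they differed widely in size. In the aorta 1 of 7 was called higher, where 0.113% of 14216 genes were called higher and 0.542% in either direction. In fat 3 were called higher (Vsig4, Timd4 and Folr2), where 1.82% of genes were and 3.93% in either direction. The average over tissues added F13a1 and Cbr2 to make 5, where 2.91% of genes were called higher and 6.34% in either direction. No marker was called lower. In the difference of the LYVE1 effect between tissues, no marker was called by edgeR over all 12 libraries without pairing, nor by DESeq2. By edgeR 0.155% of genes were called there in either direction and 0.148% with the higher value in the aorta. Of the 7 markers, 2 had an unadjusted p below 0.05 there, as had 6.06% of all genes. Without both fat libraries numbered 1, and with the replicate block, Timd4 was called there. The median log2 fold change of the 7 was 0.80 in the aorta, 0.93 in fat and 0.92 on average, beside -0.01, 0.00482 and -0.00728 over all genes. Of the 7, 5 in the aorta, 6 in fat and 6 on average had an unadjusted p below 0.05, as had 11.3%, 15.8% and 20.8% of all genes. The LYVE1+ libraries lay above the LYVE1- libraries without overlap for 6 of 7 in the aorta (all but Cd163; background 11.1%) and for 4 of 7 in fat (Vsig4, Timd4, Folr2 and Cbr2; background 9.12%).

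In fat, libraries of equal number deviated together, though libraries 2 and 3 did so across numbers as well, and with the number as a block all 7 markers were called. The added calls were F13a1 (log2 fold change 0.99, SE 0.15, adjusted p = 0.00427), Cbr2 (0.91, SE 0.16, adjusted p = 0.0084), Cd163 (0.62, SE 0.15, adjusted p = 0.0352) and Mrc1 (0.43, SE 0.10, adjusted p = 0.042). In that fit 915 genes were called in fat, against 558 without the block. The sizes moved little between the 2 fits. The order of the markers stayed as above, with Vsig4 and Timd4 first and Mrc1 last.

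**Figure D2:**
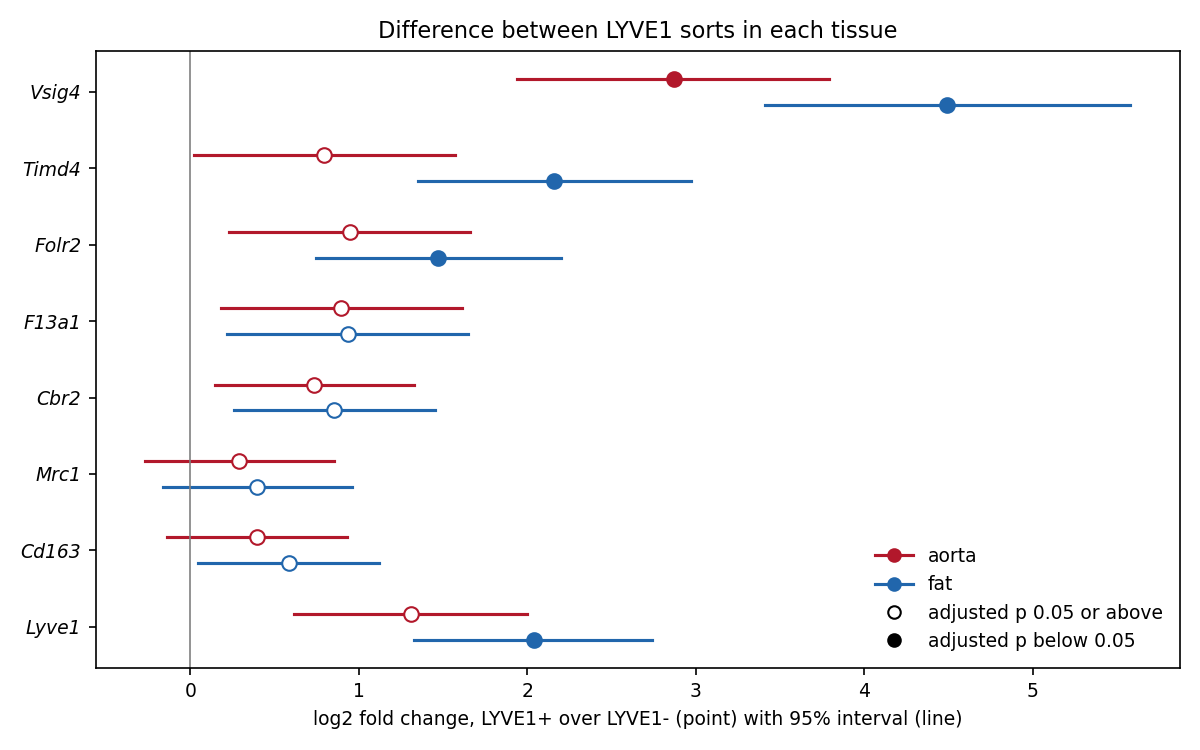
Log2 fold change of LYVE1+ over LYVE1- in the aorta (red) and in fat (blue) for each marker and Lyve1, with the 95% interval as a line and filled points where the adjusted p is below 0.05. Vsig4 has the largest values (2.87 in the aorta and 4.49 in fat) and Mrc1 the smallest (0.29 and 0.40).

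Between the tissues 2 markers were called, both in LYVE1- cells. In LYVE1+ cells none of 7 was called between aorta and fat (3% of all genes were called in either direction and 1.88% higher). None had an unadjusted p below 0.05 in that comparison, where 15.3% of all genes did. The log2 fold changes of aorta over fat lay between -0.08 (Folr2) and 0.57 (Vsig4). Cbr2 and Mrc1 lay above fat LYVE1+ in every aorta LYVE1+ library, a pattern shared by 11.3% of all genes. In LYVE1- cells 2 of 7 were called higher in the aorta, where 1.66% of all genes were and 2.48% in either direction. The 2 LYVE1- sorts were not matched in the sort gene. Lyve1 was higher in aorta LYVE1- than in fat LYVE1- libraries without overlap (log2 1.12, SE 0.32), though not called (adjusted p = 0.0948). Vsig4 averaged 8.37 ± 2.76 CPM in aorta LYVE1- and 1.8 ± 0.309 CPM in fat LYVE1- cells (SD, n = 3 each), 4.58-fold higher (log2 2.20, SE 0.49, adjusted p = 0.0364). Timd4 averaged 147 ± 17.9 CPM in aorta LYVE1- and 46.1 ± 24.2 CPM in fat LYVE1- cells, 3.19-fold higher (1.67, SE 0.37, adjusted p = 0.0345).

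Neither of these calls held in every fit. That of Vsig4 ended without any 1 of the 6 LYVE1- libraries (adjusted p = 0.068 to 0.143). That of Timd4 ended without aorta LYVE1+ library 1 or 3, any aorta LYVE1- library, fat LYVE1+ library 2, or fat LYVE1- library 2 or 3 (0.0509 to 0.105). All aorta LYVE1- libraries carry the prefix RHH and all fat libraries RMM, so prefix and tissue cannot be told apart among LYVE1- cells; with the prefix in the model neither gene was called (adjusted p = 0.572 for Vsig4 and 0.74 for Timd4). Without overlap, aorta LYVE1- lay above fat LYVE1- for Vsig4, Timd4 and Mrc1 (background 11.2%).

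Ordered by mean level, aorta LYVE1+ came first for 6 markers and fat LYVE1- last for all 7. Folr2 was the exception at the top, with 3130 ± 772 CPM in fat LYVE1+ and 2962 ± 128 CPM in aorta LYVE1+ cells, whose ranges overlap. For Vsig4 the order was aorta LYVE1+, fat LYVE1+, aorta LYVE1- and fat LYVE1-, and only the top 2 overlapped. Timd4, F13a1, Cbr2 and Cd163 had the same order of means. Timd4 was separate only between aorta LYVE1- and fat LYVE1-, Cbr2 only between aorta LYVE1+ and fat LYVE1+, and for F13a1 and Cd163 every neighbour overlapped. The means of Mrc1 were ordered by tissue: both aortic sorts (4482 ± 412 CPM in LYVE1+, 3662 ± 167 CPM in LYVE1- cells) came before both fat sorts (3453 ± 933 and 2620 ± 893 CPM), and only the top neighbours were separate. The fat LYVE1+ mean includes library 1 at 2376 CPM. Fat LYVE1+ libraries 2 and 3 (3992 and 3993 CPM) lay above all aorta LYVE1- libraries (3532 to 3851 CPM).

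Per kilobase of exon, which allows levels of different genes to be set side by side, the markers spanned a wide range. Cbr2 had the highest level per kilobase in 3 groups, with 2285 ± 104 CPM in aorta LYVE1+, 1370 ± 344 CPM in aorta LYVE1- and 1009 ± 356 CPM in fat LYVE1- cells, and Folr2 in fat LYVE1+ cells with 2025 ± 499.5 CPM. Mrc1 stood at 704 CPM per kilobase in aorta LYVE1+, 575 in aorta LYVE1-, 542 in fat LYVE1+ and 411 in fat LYVE1- cells. Vsig4 was the lowest in every group, at 41.1, 5.64, 27.4 and 1.22 CPM per kilobase in the same order, and Timd4 the next, at 118, 67.8, 95.2 and 21.2. The markers that differed most between the sorts in fat and on average were thus the rarest transcripts of the list. In the aorta that held for Vsig4 only, since Timd4 (log2 0.80) came behind Folr2 (0.95) and F13a1 (0.90). Mrc1 and Cd163 stood above 357 CPM per kilobase in every group. They were not the most abundant: Folr2, F13a1 and Cbr2, which differed more between the sorts, stood above both of them in each group.

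Libraries numbered 1 carried the low values in fat. All 7 markers were lowest in library 1 among fat LYVE1+ libraries, and 6 of 7 among fat LYVE1- libraries (Vsig4 was lowest in library 3). In LYVE1+ fat, library 1 held between 0.318 (Vsig4) and 0.69 (Cd163) of the mean of libraries 2 and 3. In LYVE1- fat the ratio lay between 0.325 (Timd4) and 0.887 (Vsig4). The erythroid and mitochondrial shares given above are highest in the same libraries. So were sums of B cell genes (451.5 CPM in LYVE1+, 162 in LYVE1-) and of T and NK cell genes (168 and 92 CPM). Monocyte genes summed to 978 CPM in fat LYVE1+ library 1, against 189 and 177 CPM in libraries 2 and 3. In LYVE1- fat they summed to 3228, 1505 and 1498 CPM in libraries 1 to 3. The Kupffer sums were lowest in both libraries 1. The part of all these in the low values was not tested.

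Without both fat libraries numbered 1, 5 of 7 markers were called in the aorta and 5 in fat, and all 7 on average. Calls over all genes were also more numerous in that fit: 566 in the aorta, 887 in fat and 1571 on average, against 77, 558 and 901 with all 12 libraries. Vsig4 then had log2 fold changes of 2.87 in the aorta and 4.8 in fat, Timd4 0.80 and 2.08, and Folr2 0.95 and 1.33. Those of F13a1 were 0.90 in the aorta (adjusted p = 0.00162) and 0.87 in fat (0.00465), and those of Cbr2 0.74 (0.0153) and 0.75 (0.0281). Mrc1 had 0.32 on average (SE 0.07, adjusted p = 0.00889) and Cd163 0.45 (SE 0.10, adjusted p = 0.0103). Set against the summed level of the 5 gate genes in the same library, a scale chosen after the data were seen, LYVE1+ lay above LYVE1- without overlap for 7 of 7 markers in fat (15.4% of all genes) and 6 of 7 in the aorta (9.64%). The gate sum is itself not free of the sort, since Ptprc was called lower in LYVE1+ cells on average (-0.49, SE 0.13, adjusted p = 0.0453), and Itgam shares 3450 exonic bases with Gm49368.

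**Figure D3:**
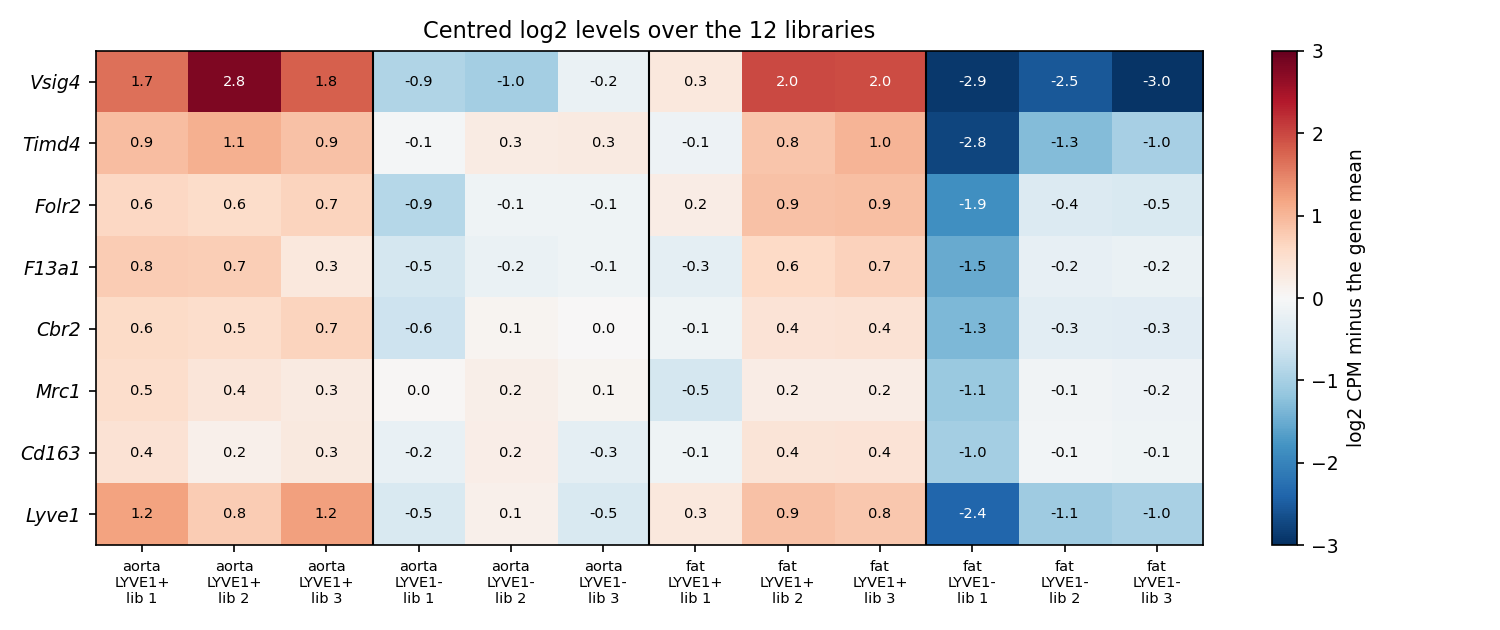
Log2 CPM of each marker and Lyve1 in the 12 libraries, minus the gene's own mean over them, with red above and blue below that mean. All rows share low values in fat LYVE1- library 1, and the spread shrinks from Vsig4 at the top to Mrc1 and Cd163.

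Transcripts of monocytes moved with the sort in the opposite direction. The 9 monocyte genes summed to 34.1 to 133.6 CPM in the LYVE1+ sort of the aorta, against 360 to 1580 CPM in its LYVE1- sort. In fat they summed to 177 to 978 CPM in the LYVE1+ sort and 1498 to 3228 CPM in the LYVE1- sort. All 9 had counts in fat LYVE1+ libraries; S100a9 was at 0 in the other 3 groups, and S100a8 in aorta LYVE1-. Ccr2, the chemokine receptor that defines them, had 8.02 to 14.8 CPM in aorta LYVE1+ against 132 to 269.7 CPM in aorta LYVE1- libraries; the fat ranges were 43.4 to 147 CPM in fat LYVE1+ against 637 to 725 CPM in fat LYVE1- libraries. The summed level of the 7 markers was 21510 to 25220 CPM in aorta LYVE1+ against 12850 to 16130 CPM in aorta LYVE1- libraries; the fat ranges were 14480 to 23330 CPM in fat LYVE1+ against 6453 to 13860 CPM in fat LYVE1- libraries. In aorta LYVE1- and in both fat sorts, library 1 had the highest monocyte sum and the lowest marker sum. In aorta LYVE1+ the highest monocyte sum was in library 2 and the lowest marker sum in library 3. Sums of 3 other lists were also separate between the aortic sorts: dendritic cell genes at 181 to 200 CPM in LYVE1+ against 295 to 369 CPM in LYVE1- libraries, mast cell genes at 1.84 to 12.7 against 45.1 to 76 CPM, and eosinophil genes at 0.313 to 2.4 against 9.37 to 27.2 CPM. In fat the sorts overlapped for these 3 lists. The part of such cells in the differences was not tested. In bulk libraries fewer cells with a marker and less of its RNA per cell cannot be told apart. Lymphatic endothelial genes, from the other source of Lyve1, summed to 18.1 to 57.8 CPM in aorta LYVE1+ against 9.55 to 18.7 in aorta LYVE1-. The fat sums were 3.1 to 15.8 CPM in LYVE1+ against 1.63 to 7.64 CPM in LYVE1- libraries. Their defining factor Prox1 reached at most 6.61 CPM. It was separate between the fat sorts, at 1.11 to 4.03 CPM in LYVE1+ against 0 to 0.0981 CPM in LYVE1- libraries. Pdpn, of the same list, overlapped there (0.907 to 3.65 against 1.47 to 7.29 CPM). Fibroblast genes summed to 838 to 2507 CPM in aorta LYVE1+ against 1302 to 2244 CPM in aorta LYVE1- libraries; the fat ranges were 401 to 650.3 CPM in fat LYVE1+ against 511 to 992 CPM in fat LYVE1- libraries.

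The markers can be placed by how alike their profiles over the 12 libraries are. The measure is the root mean square difference of log2 CPM after each gene's mean is removed, so that 0 is an identical profile. It describes these libraries, which share depth and composition, and is given with no test. The measure is not scaled to the spread of a gene, so genes that vary little come out close to each other. Among the markers, Mrc1 and Cd163 (0.199) and F13a1 and Cbr2 (0.203) were the closest pairs, and Vsig4 and Mrc1 the farthest (1.73). Lyve1 was closest to Timd4 (0.35), then Folr2 (0.41), and farthest from Vsig4 (1.13), whose profile runs the same way over a wider range.

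Of the 7124 genes whose average log2 CPM was 4 or more, those nearest to each marker were found in the same way. Nearest to Vsig4 were Npr1 (0.741), Adgrg1 (0.875) and Dnm1 (0.908), where the median over all genes was 1.99. Nearest to Timd4 were Colec12 (0.259), Cpne8 (0.313) and Lyve1 itself (0.35), with a median of 1.13. Folr2 had Selenbp1 (0.105), Npl (0.196) and Tcn2 (0.198) nearest, with a median of 0.799. For F13a1 they were Selenop (0.163), Prune2 (0.176) and Npl (0.183), with a median of 0.661. For Cbr2 they were Camk1 (0.122), Tcn2 (0.146) and Sorbs3 (0.152), with a median of 0.602. Mrc1 had Slc9a9 (0.0861), Csf1r, the receptor of the macrophage growth factor CSF1 (0.124), and Scpep1 (0.124) nearest, with a median of 0.476. Cd163 had Tbc1d14 (0.0805), Mcfd2 (0.101) and Trim47 (0.106), with a median of 0.446.

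The other genes commonly listed for resident macrophages were set beside the 7. All 22 were tested. In the aorta none was called by edgeR (11 had an unadjusted p below 0.05, as had 11.3% of all genes, and DESeq2 called 5), 21 had positive values and the median log2 fold change was 0.51. In fat 11 were called higher (1.82% of all genes), all 22 had positive values and the median was 1.04, and on average 13 were called higher (2.91% of all genes). Fcna, ficolin A, a lectin that can set off complement, had 1622 ± 32.5 CPM in aorta LYVE1+ and 453.5 ± 150.2 CPM in aorta LYVE1- cells (log2 1.84, SE 0.41, adjusted p = 0.0739). In fat it had 2987 ± 1002 CPM in LYVE1+ and 424 ± 223 CPM in LYVE1- cells (2.82, SE 0.42, adjusted p = 0.00271). Colec12, a scavenger collectin, was higher in fat LYVE1+ cells (2.29, SE 0.36, adjusted p = 0.00314), as was Ninj1, an adhesion protein that takes part in membrane rupture (1.65, SE 0.25, adjusted p = 0.00249).

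Cd209d, a C-type lectin of the DC-SIGN family, was the one gene of the 22 called between the LYVE1+ sorts of the tissues. It averaged 123.1 ± 16.1 CPM in aorta LYVE1+ and 386 ± 40.8 CPM in fat LYVE1+ cells (log2 -1.65, SE 0.29, adjusted p = 0.00934). In fat it was higher in LYVE1+ than in LYVE1- cells (2.11, SE 0.30, adjusted p = 0.00181), and in the aorta its value was 0.52 (SE 0.29, adjusted p = 0.526). The difference of the 2 effects, -1.58, was not called (SE 0.41, adjusted p = 0.293). Reads of Cd209d may be shared with its close paralogs, and how the authors counted such reads is not given in the sources used here.

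**Figure D4:**
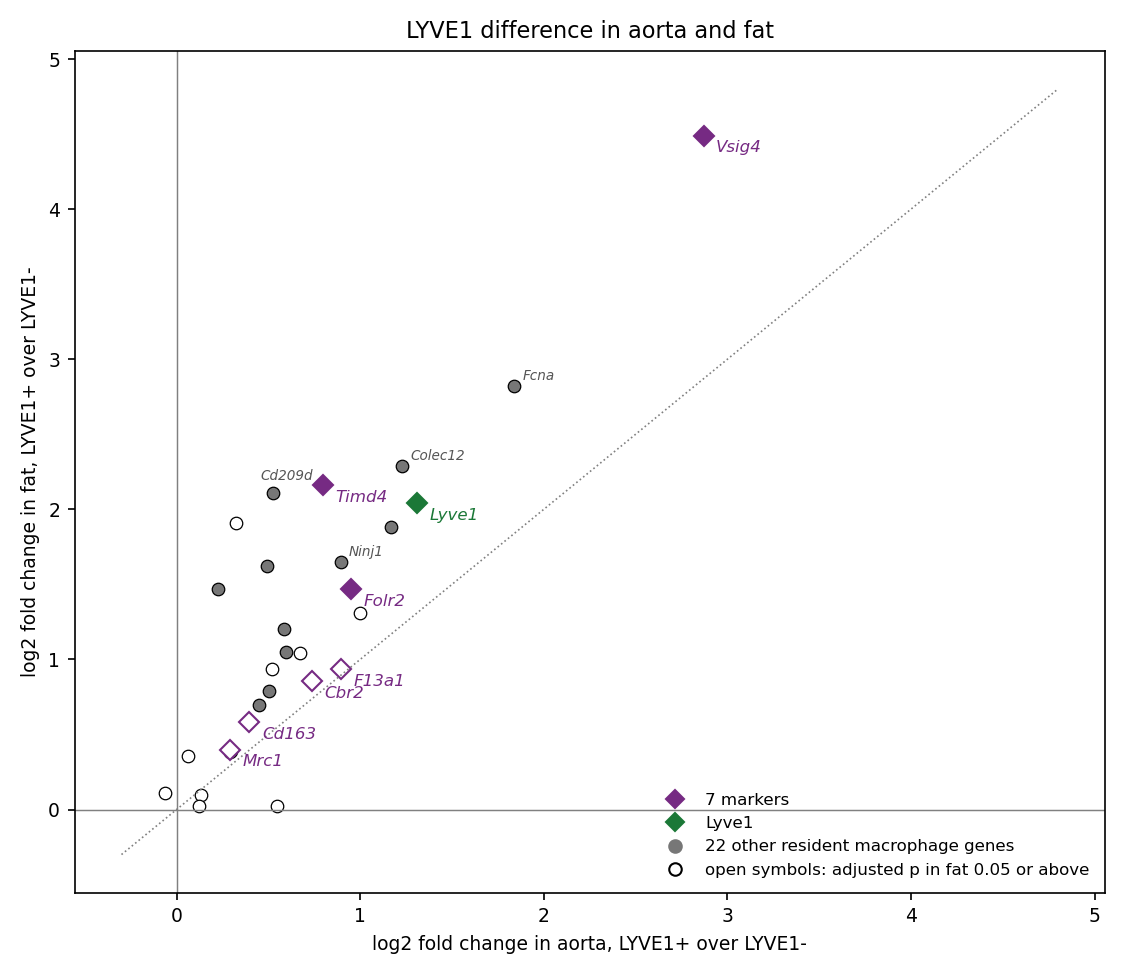
Log2 fold change of LYVE1+ over LYVE1- in the aorta (horizontal axis) against fat (vertical axis), with diamonds for the 7 markers and Lyve1 and circles for 22 other resident macrophage genes; filled symbols have an adjusted p below 0.05 in fat and the dotted line marks equal values. Vsig4 lies apart at 2.87 and 4.49, F13a1, Cbr2, Mrc1 and Cd163 lie close to the line, and Timd4 (0.80 and 2.16) lies above it near Cd209d (0.52 and 2.11).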

How the data were processed

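Raw counts per gene were deposited by the authors for 12 libraries. Per the submitters' processing notes, the tools were STAR 2.5.2b, featureCounts 1.5.0 and edgeR 3.14.0, on GRCm38. The strand setting and annotation release are not given in the sources used here. The authors' log2 CPM table of the same libraries was not used here. Symbols, positions and exon lengths came from GENCODE M21, matched on Ensembl identifiers (46005 of 46517 genes). Groups and replicate numbers came from the labels.

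The members and gene lists were chosen with earlier results of these data known, so the counts over them describe and support nothing independently. Counts were fitted with edgeR 4.0.16 in R 4.3.3 (quasi-likelihood, TMM factors, 1 mean per group, 8 residual degrees of freedom) after its filter on low counts, which kept 14216 genes. Tests were two-sided, with Benjamini-Hochberg adjustment over those genes and a call below 0.05. The SE is the log2 fold change over the root of the F statistic. Sums over cell type lists, the gate and the markers are CPM on the plain library size, other levels on the TMM-scaled size. The script was tested on simulated data. Total counts ranged from 5049936 to 29792301, and abundant markers are limited by the spread between libraries, Vsig4 in fat LYVE1- also by its counts.

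Beyond the 7 markers, Lyve1 and the gate, the text names from each list up to 4 called genes with the smallest adjusted p over the LYVE1 comparisons, or the 2 most abundant where none was called. A result on the complement list is not reported here. Cell type lists were summed as markers of other cells. Likeness takes the nearest genes by the measure given there. No library repeats another: log2 CPM of replicates correlated at 0.9075 to 0.9646.

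The labels do not tell if libraries of equal number came from the same mice. Same-numbered LYVE1+ and LYVE1- libraries of fat deviated together from their group means (r = 0.486, 0.279 and 0.184 for numbers 1, 2 and 3), while in the aorta they did not (-0.0441, -0.0767 and -0.17). Fat libraries 2 and 3 also deviated together across numbers (0.225 for LYVE1+ 3 with LYVE1- 2, 0.192 for LYVE1+ 2 with LYVE1- 3), so the block in fat mainly sets library 1 apart from the others. The alternatives were DESeq2 1.42.0, other size factors, no filter, the replicate block, the prefix as a covariate, fits of the groups compared alone, and leaving out libraries.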

Additional observations from a re-analysis of the deposited data

How the results depend on the processing

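Counts of calls moved with the setting, and the cause was not tested. DESeq2 called 360 genes in the aorta, 1013 in fat, 1538 on average, 100 in the difference between tissues, 922 between the LYVE1+ sorts and 847 between the LYVE1- sorts, and 5 markers in fat. Without the filter on low counts the genes called were 336 in the aorta, 72 in the difference, 820 between LYVE1+ sorts and 647 between LYVE1- sorts. Fits of the groups compared alone called 4 markers of 294 genes in the aorta, 1 of 206 in fat, 1 marker between LYVE1- sorts and 243 genes between LYVE1+ sorts. With the replicate block 5 markers and 243 genes were called in the aorta, 7 and 915 in fat, 1470 genes on average and 1 marker in the difference (Timd4, -1.45, adjusted p = 0.0332). Same-numbered aortic libraries did not deviate together, and the labels do not tell if equal numbers mark 1 pool of mice. With the prefix as a covariate 0 markers and 2 genes were called in the aorta, 3 and 278 on average, 0 genes in the difference, 181 genes between LYVE1+ sorts, and 0 markers and 7 genes between LYVE1- sorts. Without both fat libraries numbered 1 the counts were 5 markers and 566 genes in the aorta, 5 and 887 in fat, 1571 genes on average, 1 marker and 84 genes in the difference, 890 genes between LYVE1+ sorts and 1024 between LYVE1- sorts. Per gate-gene level, 7 markers did not overlap in fat. Of the other resident genes, those called higher in the aorta were 5 by DESeq2, 4 without the filter, 6 in the fit of its groups alone, 5 with the block and 10 without both fat libraries numbered 1. In fat 4 were called in the fit of its groups alone, and on average 6 with the prefix.

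Leaving out 1 library at a time gave 0 to 1 markers and 23 to 210 genes in the aorta, 2 to 5 and 219 to 1025 in fat, 3 to 6 and 494 to 1635 on average, 0 and 0 to 47 in the difference, 0 and 172 to 538 between LYVE1+ sorts, and 0 to 2 and 98 to 531 between LYVE1- sorts. It gave 0 to 3, 5 to 15 and 9 to 15 other resident genes in the aorta, in fat and on average. Only values near 0 changed sign. Without both fat libraries numbered 1, F13a1 was 0.0312 in the difference, -0.0299 between LYVE1+ sorts and -0.0611 between LYVE1- sorts, and Cd163 was -0.0931 between LYVE1+ sorts. Over single libraries left out, the difference spanned -0.289 to 0.284 for F13a1, -0.311 to 0.152 for Cbr2, -0.317 to 0.153 for Mrc1 and -0.346 to 0.0589 for Cd163. Between LYVE1+ sorts the span was -0.273 to 0.038 for Folr2, -0.0304 to 0.41 for F13a1 and -0.0936 to 0.166 for Cd163, and between LYVE1- sorts -0.0614 to 0.464 for F13a1. The fat calls of Vsig4 and Timd4 held in all 12 such fits. With 13 to 22 counts in fat LYVE1-, depth limits Vsig4 there.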
